A study of Mus musculus with 4 samples.

Results

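Transcripts of the Nodal signalling pathway were measured in RNA recovered with FLAG-tagged NANOS2 from mouse testis at postnatal day 7. The set comprises 10 genes: the ligand Nodal, its antagonists Lefty1 and Lefty2, the co-receptor Tdgf1 (Cripto), the receptors Acvr1b and Acvr2b, and the signal transducers Smad2, Smad3, Smad4 and Smad7. They were taken by gene symbol, with every array probe whose RefSeq accession carries that symbol. This gave 10 probes for 8 genes, of 41174 probes on the array, of which 22951 carried one of 16358 symbols. Smad3 and Smad4 had 2 probes each, and no probe was matched to Nodal or Smad7, the other 2 genes, which are not analysed here.

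All testes came from male mice with a transgene in which a Nanos2 enhancer drives FLAG-tagged Nanos2 followed by a 3′ untranslated region. Both groups, the RNA of the starting tissue (Input) and the RNA recovered with the tag (FLAG IP), carry this transgene, with 2 biological replicates each and 4 single-colour arrays in all. The labels name no animals, so p-values measure the spread between these samples, and a free-text field names a fetal gonad where titles and characteristics give day 7. A precipitation from untagged testis was not analysed here, so a difference between the groups compares recovered with starting RNA and does not measure binding.

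Nodal is a secreted ligand of the TGF-beta family. With the membrane-anchored co-receptor Cripto it brings together a type I receptor such as ACVR1B and a type II receptor such as ACVR2B. The complex, through its type I receptor, phosphorylates SMAD2 and SMAD3, and these enter the nucleus with SMAD4. The Lefty proteins are extracellular inhibitors that the pathway itself induces, and SMAD7 inhibits receptors from inside the cell. In the fetal testis the pathway is known to act in germ cells before male differentiation is complete. NANOS2 binds RNA in male germ cells and recruits a deadenylase, and after birth it marks undifferentiated spermatogonia.

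In the FLAG IP, Smad4 was 1.86-fold higher by one of its probes and Lefty1 was 1.48-fold lower, and the other 8 probes did not pass the test. A level is the log2 signal of a probe less its array's 75th percentile, a change is the FLAG IP mean less the Input mean, and a call is an adjusted p under 0.05 in limma over all 27833 probes tested. Of the 10 probes, all of which passed the filter on dim signals, 1 was called higher and 1 lower. Among all tested probes 15.6% were called higher and 20.0% lower, 35.6% in all, so the count of called probes did not exceed the share at large. The groups did not overlap for 8 of the 10 probes, against 73.8% of all tested probes (30.5% with the FLAG IP higher and 43.3% with it lower).

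**Figure D1:**
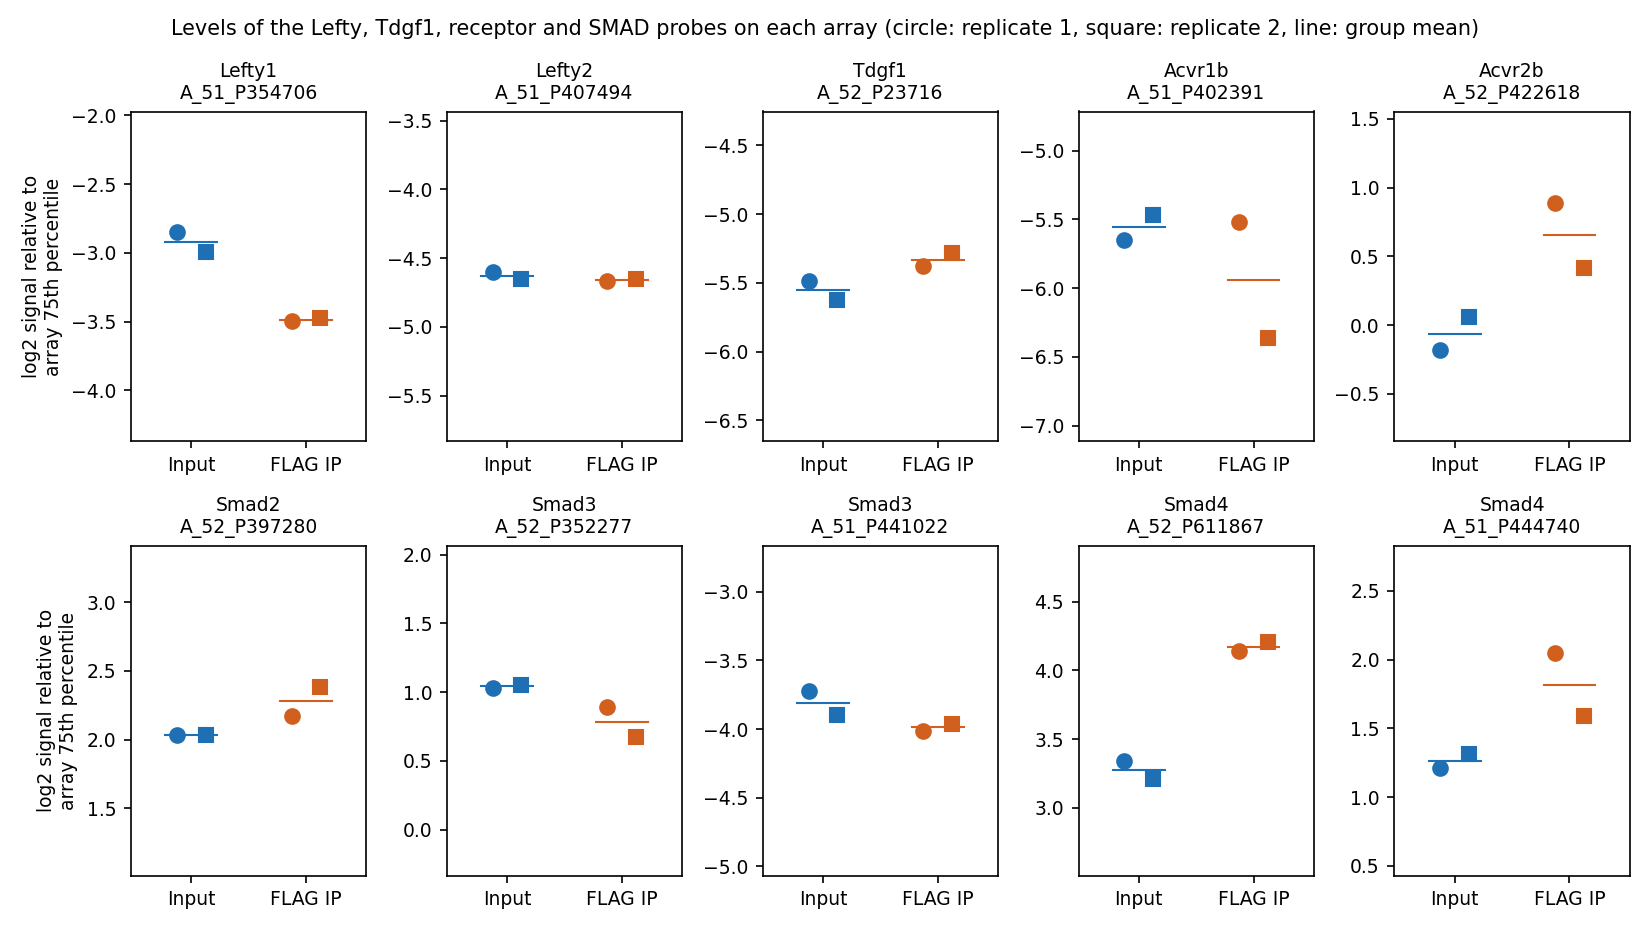
Level of each of the 10 probes on each of the 4 arrays, as log2 signal relative to the 75th percentile of the array; Input in blue, FLAG IP in orange, circles for replicate 1, squares for replicate 2 and a line at each group mean, with the same span of the axis in every panel. The FLAG IP arrays of Smad4 (A_52_P611867) lie at 4.14 and 4.20, above the Input arrays at 3.34 and 3.21, and those of Lefty1 at −3.50 and −3.47, below −2.85 and −2.99.

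Of the antagonists, Lefty1 was called lower and Lefty2 was not called. For Lefty1 (NM_010094), levels were −2.85 and −2.99 on the Input arrays and −3.50 and −3.47 on the FLAG IP arrays. Both FLAG IP arrays lay below both Input arrays. The means were −2.92 ± 0.10 and −3.49 ± 0.02 (SD, n = 2 each), and Lefty1 fell by 0.57 ± 0.14 on the log2 scale (SE, limma adjusted p = 0.038). The signals before scaling were 205 and 211 in the Input and 90.2 and 114 in the FLAG IP. Leaving out an array leaves its group with 1 array, which is then assumed to vary like the other group, so these values are descriptions of how far a call rests on an array. Leaving out any single array ended this call, with adjusted p = 0.26 without Input replicate 1, 0.17 without Input replicate 2, 0.066 without FLAG IP replicate 1 and 0.056 without FLAG IP replicate 2. It also ended under normexp background correction, with a change of −0.34 (adjusted p = 0.11), without the filter on dim probes (adjusted p = 0.055), under trended and robust moderation (adjusted p = 0.051) and with the replicate number as a block (adjusted p = 0.13).

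For Lefty2 (NM_177099), levels were −4.60 and −4.65 in the Input and −4.66 and −4.65 in the FLAG IP. The groups overlapped. The change was −0.03 ± 0.13 (limma adjusted p = 0.87), with a 95% interval from −0.38 to 0.32. Its signals were 60.7 and 66.7 in the Input and 40.2 and 50.5 in the FLAG IP, where the lowest signal well above background on an array lay between 13.4 and 19.4. Lefty1 and Lefty2 are close paralogues, and whether their probes tell the transcripts apart was not tested, nor was the difference between their changes.

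Tdgf1 (NM_011562), the Cripto co-receptor, was dim, though well above background on all 4 arrays. Its levels were −5.48 and −5.62 in the Input and −5.38 and −5.28 in the FLAG IP, and its signals ran from 24.5 to 34.0. The FLAG IP arrays lay above the Input arrays by 0.11 to 0.34 in the 4 array pairs. The change was 0.22 ± 0.14 (limma adjusted p = 0.27), with a 95% interval from −0.15 to 0.60. Cfc1, the other co-receptor of the Cripto family, had a change of −0.00 ± 0.15 (limma adjusted p = 0.99).

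Acvr2b (NM_007397), a type II receptor for Nodal and activins, had levels of −0.18 and 0.06 in the Input and 0.89 and 0.42 in the FLAG IP. Both FLAG IP arrays were above both Input arrays. The change was 0.72 ± 0.22, a 1.64-fold difference that did not pass (limma adjusted p = 0.060), with a 95% interval from 0.15 to 1.29. Without FLAG IP replicate 2, the lower of the pair, the remaining array gave 0.95 (adjusted p = 0.025, with the spread taken from the Input). With all arrays it passed under normexp background correction (adjusted p = 0.027) and trended and robust moderation (adjusted p = 0.037).

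Acvr1b (NM_007395), a type I receptor through which Nodal signals, had levels of −5.65 and −5.47 in the Input and −5.52 and −6.36 in the FLAG IP. FLAG IP replicate 2 was the low array, with a signal of 15.4, and it was not well above background, whereas FLAG IP replicate 1 lay among the Input arrays. The change was −0.38 ± 0.31 (limma adjusted p = 0.37). It was 0.04 without FLAG IP replicate 2 (adjusted p = 0.87) and −0.80 without FLAG IP replicate 1, where the only array left in the FLAG IP is the one not well above background (adjusted p = 0.033, with the spread taken from the Input). Its size and direction rested on which array of the FLAG IP was used.

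**Figure D2:**
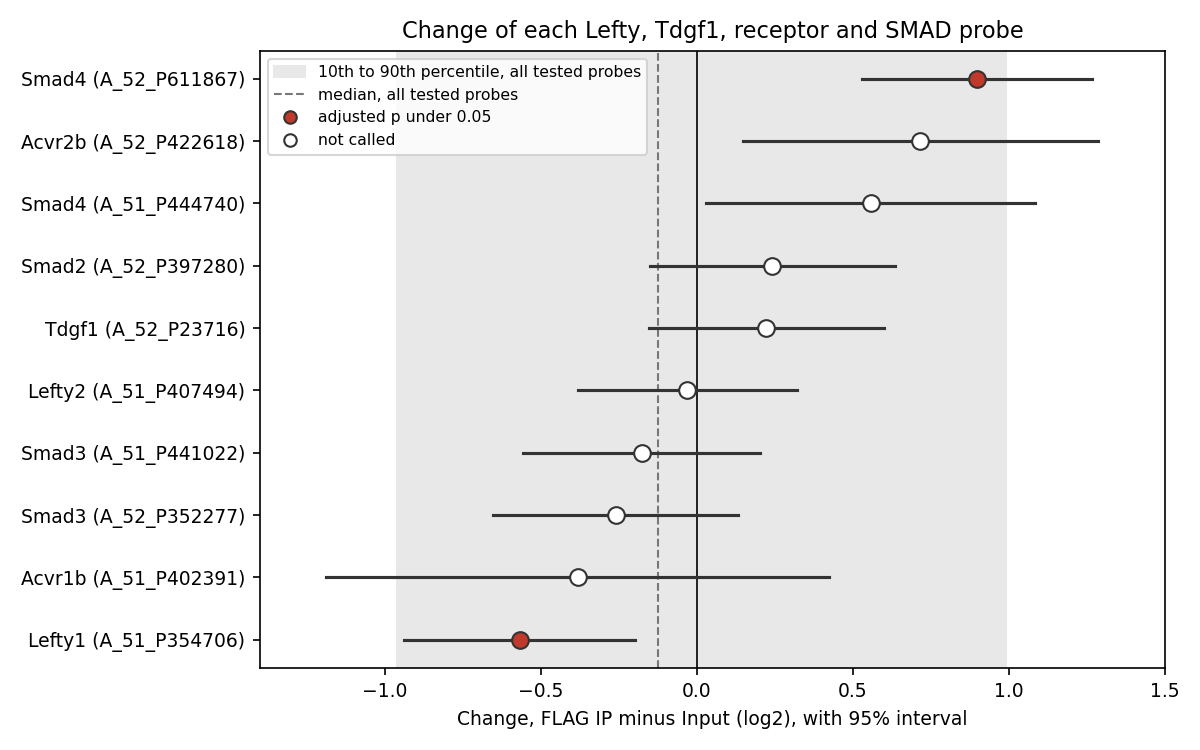
Change of each of the 10 probes (points, FLAG IP minus Input on the log2 scale) with its 95% interval from limma, ordered by size; filled points are called, the grey band spans the 10th to 90th percentile of the changes of all tested probes (−0.96 to 0.99) and the dashed line is their median (−0.13). All 10 points lie inside the band, from −0.57 for Lefty1 to 0.90 for Smad4; Smad4, Acvr2b, Smad2 and Tdgf1 lie below 0 when arrays are scaled to spike-in spots.

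Among the SMAD transcription factors of the set, only Smad4, the partner shared by the Nodal, TGF-beta and BMP branches, had a called probe. Outside the set, a probe of Smad1 and a probe of Smad5 were also called higher, as given below. On probe A_52_P611867 (NM_008540) the levels of Smad4 were 3.34 and 3.21 in the Input and 4.14 and 4.20 in the FLAG IP. Each FLAG IP array was higher than each Input array, by 0.80 to 0.99. The means were 3.28 ± 0.09 and 4.17 ± 0.04 (SD, n = 2 each), and Smad4 rose by 0.90 ± 0.14 (SE, limma adjusted p = 0.014), placing it at percentile 88.7 of the changes of all tested probes. Its signals were 14928 and 15504 in the Input and 18006 and 23348 in the FLAG IP. The call ended without Input replicate 1 (0.96, adjusted p = 0.088) or Input replicate 2 (0.83, adjusted p = 0.11).

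On the second probe of Smad4, A_51_P444740, levels were 1.21 and 1.31 in the Input and 2.05 and 1.59 in the FLAG IP. Both FLAG IP arrays were again above both Input arrays, with FLAG IP replicate 1 the higher. The change was 0.56 ± 0.20 and did not pass (limma adjusted p = 0.090), with a 95% interval from 0.03 to 1.08 that overlaps that of the first probe, from 0.53 to 1.27. Without FLAG IP replicate 2, the lower of the pair, the remaining array gave 0.79 (adjusted p = 0.028, with the spread taken from the Input), and the mean of both probes rose by 0.73 (adjusted p = 0.024).

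The receptor-activated SMADs of the Nodal branch did not pass. Smad2 (NM_010754) had levels of 2.04 and 2.04 in the Input and 2.17 and 2.38 in the FLAG IP. The FLAG IP arrays were the higher ones, and the change was 0.24 ± 0.15 (limma adjusted p = 0.26), with a 95% interval from −0.15 to 0.63.

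Smad3 (NM_016769) had levels of 1.03 and 1.05 in the Input and 0.89 and 0.68 in the FLAG IP on probe A_52_P352277. The FLAG IP arrays were here the lower ones, with a change of −0.26 ± 0.15 (limma adjusted p = 0.23). On probe A_51_P441022 the levels were −3.72 and −3.90 in the Input and −4.01 and −3.96 in the FLAG IP. The groups did not overlap on this probe either, and the change was −0.18 ± 0.15 (limma adjusted p = 0.38). The 95% intervals of the Smad3 probes, from −0.65 to 0.13 and from −0.56 to 0.20, overlap that of Smad2, and the difference between the genes was not tested.

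All of these directions are relative to the 75th percentile of each array. With 10 spike-in probes as the scale instead, the median change of all tested probes moved from −0.13 to −1.13. The spike-in probes stood at −0.52 and 0.02 log2 units from their own mean on the Input arrays. On the FLAG IP arrays they stood at 0.44 and 0.13, so this scale also varied between replicates. The change of Smad4 then became −0.11 (adjusted p = 0.83) on its first probe and −0.45 on its second, that of Acvr2b −0.29, that of Smad2 −0.76 and that of Tdgf1 −0.78. Relative to that shifted median, Smad4 stood at 1.02 and 0.68 and Lefty1 at −0.44. This scaling adds the same amount to every probe of an array, so it moves all changes together.

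**Figure D3:**
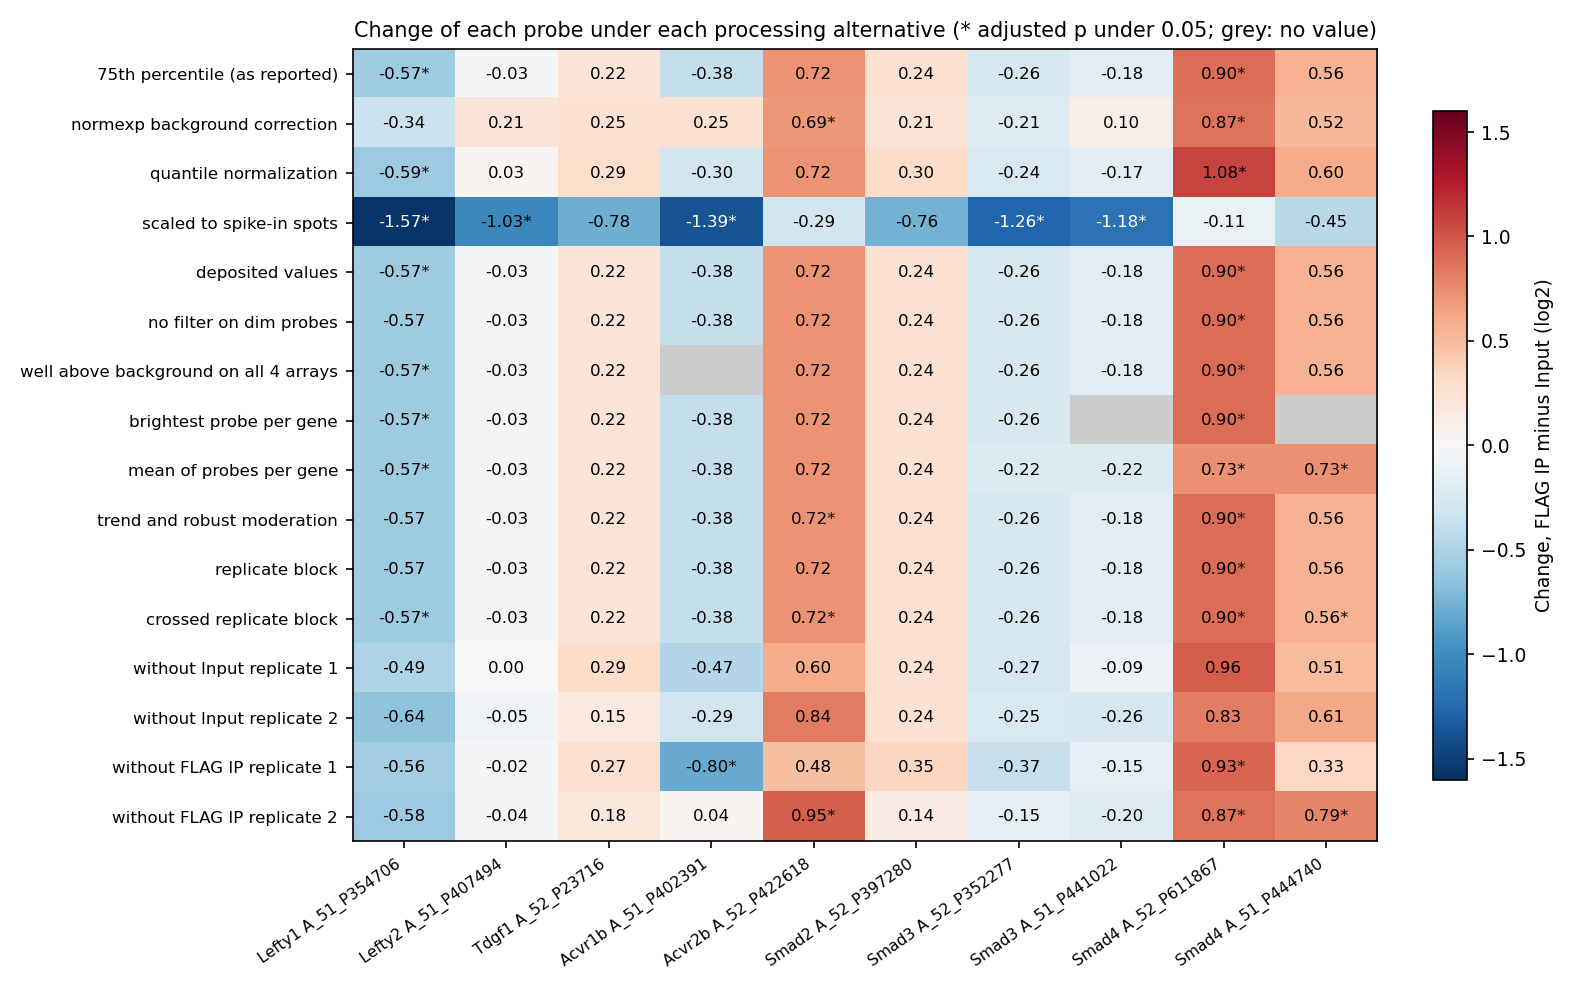
Change (FLAG IP minus Input, log2, colour and printed value) of each probe in columns under each processing alternative in rows, with an asterisk at an adjusted p under 0.05 and grey where a setting gives no value. The first probe of Smad4 stays between 0.83 and 1.08 under every setting shown except spike-in scaling (−0.11) and the mean of both probes (0.73), and Lefty1 stays below 0 in all of them, with the call lost in 8.

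Cell markers were read on the same arrays, each gene by its brightest probe. Of all tested genes with a symbol, 16.0% were called higher and 18.6% lower. A single call in a short list is no result about a cell type. Of 13 markers of undifferentiated spermatogonia, the cells that normally express NANOS2, 11 were higher and 1 was lower, and their summed level (relative to the 75th percentile signal) was 8.62 to 8.88 in the Input and 34.1 to 44.0 in the FLAG IP. Nanos2 itself, 1 of these 13, rose by 1.58 ± 0.22 (limma adjusted p = 0.011). Whether its probe also reads the transcript of the transgene was not tested. Of 7 other germ cell markers 2 were higher, with a summed level of 93.8 to 97.3 in the Input and 108 to 146 in the FLAG IP. Stra8, the brightest of them, was not called (0.16 ± 0.22, limma adjusted p = 0.60), and its groups overlapped. Of 12 Sertoli cell markers 4 were lower, with sums of 157 to 160 and 115 to 121, and all 5 macrophage markers tested were lower, with sums of 3.43 to 3.48 and 1.501 to 1.67. Lower calls were also made for 4 of 8 Leydig cell markers (sums of 29.9 to 39.5 and 14.4 to 18.3), 4 of 7 peritubular myoid markers (113 to 126 and 74.8 to 76.6), 1 of 7 endothelial markers (4.54 to 5.45 and 3.10 to 3.88) and 1 of 3 red blood cell markers (19.0 to 29.1 and 8.79 to 11.3). No marker with a probe was below background on all 4 arrays. Ret, a spermatogonial marker counted as higher, passed the filter on dim probes through the FLAG IP alone. Tsx (Sertoli) and Lhcgr (Leydig), counted as lower, passed it through the Input alone. The selection of these markers favoured a difference. Each sum adds signals on the linear scale, so a few bright markers make up most of it. In the Sertoli sum these were Clu and Dhh and in the myoid sum Acta2, none of them called by its brightest probe. The other probes of Acta2 were both called lower, at −0.85 and −1.05 (limma adjusted p = 0.022 and 0.012). In the spermatogonial sum the bright markers were Foxo1 and Id4, both called higher, and in the red blood cell sum Hba-a1, called lower. The part of these cell types in the changes of Smad4 and Lefty1 was not tested. A marker difference here compares recovered with starting RNA and is no count of cells.

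The wider pathway was read from a list of 81 further genes of the Nodal, activin, TGF-beta and BMP branches, of which 77 had a probe and 70 were tested, each by its brightest probe. Of these, 12 were higher, 14 were lower and 44 were not called. Of all 13259 tested genes with a symbol, 16.0% were higher and 18.6% lower, so the list was again close to the array. Its median change was −0.16, beside −0.12 for all genes with a symbol. Counted over all its probes rather than genes, 14 were higher and 16 lower, and without either Input array the counts were 8 and 0.

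Ligands made up the part of the list with the lowest median, at −0.53 over 16 tested genes. Of these 6 were lower, and by limma 0 were higher, also at an unadjusted p under 0.05. Tgfb3, a TGF-beta isoform, had levels of 2.93 and 3.03 in the Input and 2.14 and 1.94 in the FLAG IP, and fell by 0.94 ± 0.15 (adjusted p = 0.014). Bmp5 fell by 0.93 ± 0.16 (adjusted p = 0.017) and Amh, the anti-Müllerian hormone of Sertoli cells, by 0.87 ± 0.20 (adjusted p = 0.030). The second probe of Bmp5 was not well above background. Without either Input array none of these 3 calls was kept, and the change of Bmp5 under normexp background correction was −0.06. The other lower ligands were Tgfb2, Inha, the inhibin alpha subunit, and Inhbb, an activin subunit, at −0.85, −0.72 and −0.54. Inhbb only just passed (limma adjusted p = 0.048), and its second probe was at −0.24 (adjusted p = 0.41) with overlapping groups.

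Processing enzymes and secreted or membrane antagonists held calls in both directions, 2 higher and 3 lower of 12. Follistatin (Fst), which binds and neutralises activins, had levels of −2.36 and −1.89 in the Input and 0.21 and −0.35 in the FLAG IP. All FLAG IP values lay above all Input values, and Fst rose by 2.06 ± 0.27, or 4.16-fold (limma adjusted p = 0.0097). Noggin (Nog), a BMP antagonist, rose by 0.81 ± 0.21 (adjusted p = 0.040). Dact2, an inhibitor of Nodal receptor signalling, fell by 1.43 ± 0.24 (adjusted p = 0.016) and Furin, a convertase that cleaves precursors of the family, by 0.60 ± 0.15 (adjusted p = 0.037). Under spike-in scaling Nog was at −0.20.

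Of 12 receptors 4 were higher and 3 lower. Bmpr1b, a type I BMP receptor, was not well above background on either Input array (−6.31 and −6.20) and reached −1.66 and −2.13 in the FLAG IP. By its own signals Bmpr1b was 20.6-fold higher (limma adjusted p = 0.0042). With the Input not well above background, this is neither a measured size nor a lower bound. Bmpr1b passed the filter on dim probes through the FLAG IP alone, as did Acvr1c, Eomes and Sox2, so their selection favoured a difference. In the fit of all probes without that filter Bmpr1b, Eomes and Sox2 were still called (adjusted p = 0.021 each) and Acvr1c was not (adjusted p = 0.080). Tgfbr1, the type I TGF-beta receptor, rose from 0.46 and 0.50 to 2.02 and 1.85, by 1.45 ± 0.14 (adjusted p = 0.0063), although its second probe had −0.13 ± 0.15 (adjusted p = 0.54). Acvr1c, a second type I receptor for Nodal, had levels of −6.54 and −5.80 in the Input and −3.73 and −4.78 in the FLAG IP, a change of 1.91 ± 0.44 (limma adjusted p = 0.030). It was well above background on 1 of 2 Input arrays, and its other 2 probes were not tested because they were too dim.

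Acvr2a, the paralogue of Acvr2b, was also called higher, at 0.75 ± 0.17 (limma adjusted p = 0.032), close in size to the 0.72 of Acvr2b, and its second probe had −0.33 ± 0.16 (adjusted p = 0.16). Lower calls among the 12 receptors were Acvr1 (−0.85 ± 0.21), Amhr2, the receptor of anti-Müllerian hormone (−0.59 ± 0.13), and the endothelial co-receptor Eng (−0.54 ± 0.15), with adjusted p = 0.036, 0.031 and 0.049. Amhr2 was at −0.14 (adjusted p = 0.49) under quantile normalization. The median change of the 12 was −0.02.

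**Figure D4:**
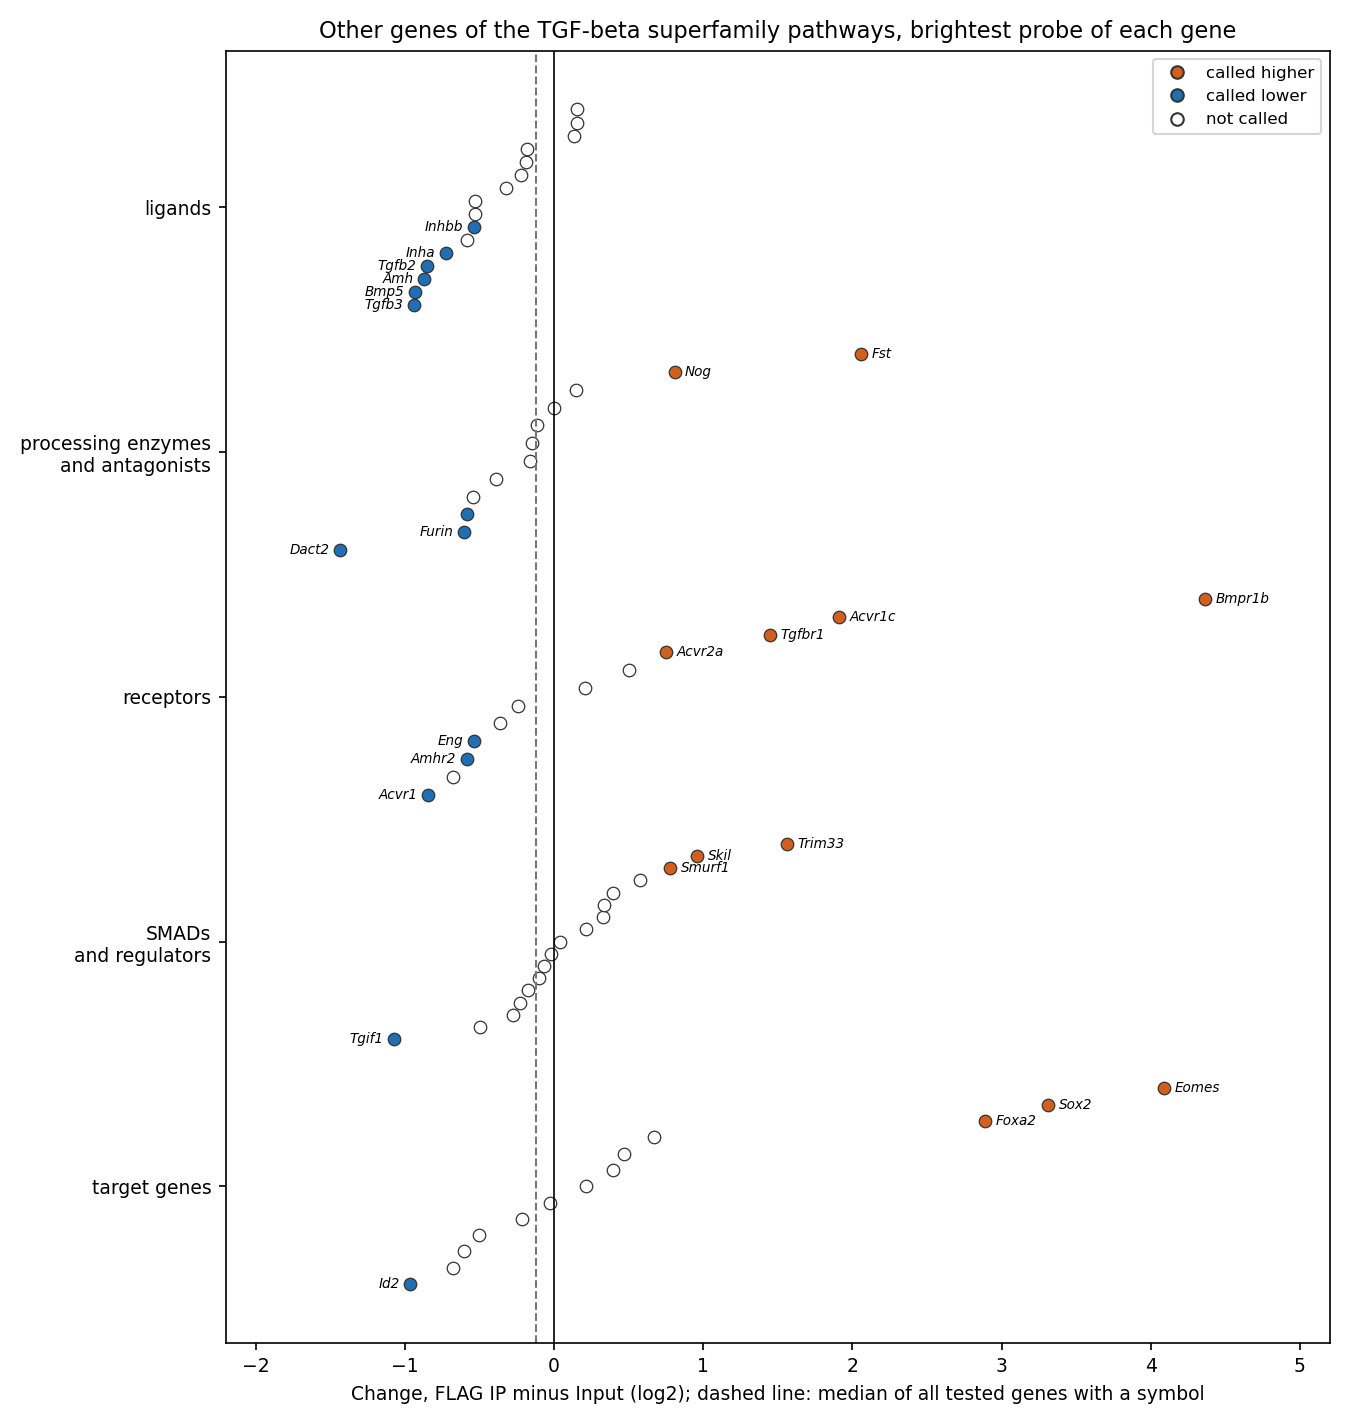
Change (FLAG IP minus Input, log2, brightest probe) of the 70 tested genes of the wider pathway list, by role; orange and blue points are called higher and lower, open points are not called, labels mark called genes described in the text, and the dashed line is the median of all tested genes with a symbol (−0.12). The ligands reach no further than 0.15 on the higher side, while the points of Bmpr1b, Eomes, Sox2 and Foxa2 lie to the right of the rest, those of Bmpr1b and Sox2 with an Input not well above background on either array, so that their place is not a measured size; Nog, Skil and Smurf1 lie below 0 when arrays are scaled to spike-in spots.

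Among 17 other SMADs and SMAD regulators, 3 were higher and 1 lower. Trim33, a ubiquitin ligase that binds SMAD2, SMAD3 and SMAD4, had levels of 2.81 and 2.86 in the Input and 4.36 and 4.43 in the FLAG IP. Both FLAG IP arrays lay above both Input arrays, and it rose by 1.56 ± 0.14 (limma adjusted p = 0.0052). The corepressor Skil rose by 0.96 ± 0.19 (adjusted p = 0.021) and the ubiquitin ligase Smurf1 by 0.78 ± 0.19 (adjusted p = 0.036), whereas the second probes had 0.67 (adjusted p = 0.059) and −0.17 (adjusted p = 0.39). Under spike-in scaling Skil was at −0.05 and Smurf1 at −0.23. Tgif1, a homeodomain corepressor of SMAD2, fell by 1.07 ± 0.13 (adjusted p = 0.0088).

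The SMADs of the BMP branch differed by probe. The brightest probes of Smad1 and Smad5 were not called, at 0.33 ± 0.19 and −0.27 ± 0.13 (limma adjusted p = 0.22 and 0.17). A second probe of Smad1 was called higher at 1.21 ± 0.14 (adjusted p = 0.0074), as was a second probe of Smad5 at 1.71 ± 0.18 (adjusted p = 0.0069), and the third probe of Smad5 had −0.05. These probes were singled out after their values were seen. Smad6, an inhibitory SMAD, had −0.06 ± 0.15.

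Of 13 tested genes that are known downstream of Nodal or BMP signals in embryos or stem cells, 3 were higher and 1 lower. Eomes, a T-box factor that Nodal induces in the early embryo, rose from −5.72 and −6.09 to −1.47 and −2.17, by 4.09 ± 0.29 (limma adjusted p = 0.0042), with 1 of 2 Input arrays well above background, so that the size of its change rests on a dim Input. Foxa2, a forkhead factor of endoderm, rose from −4.10 and −4.02 to −1.43 and −0.91, by 2.89 ± 0.22 (adjusted p = 0.0044). Sox2, a pluripotency factor, failed the background criterion on both Input arrays. By its own signals it was 9.93-fold higher (limma adjusted p = 0.0042), again not a measured size. Id2, a BMP-responsive inhibitor of helix-loop-helix factors, fell by 0.97 ± 0.14 (adjusted p = 0.012), and its second probe had −0.81 ± 0.26 (adjusted p = 0.069). T, Gsc, Id3 and Junb were not called, at 0.21, 0.67, −0.03 and 0.47. Mixl1 was not tested, because it was well above background on only 1 array of each group.

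Of 22 called genes of the wider list, those with the largest changes in each role, 7 kept their call when each array was left out in turn: Bmpr1b, Eomes, Foxa2, Fst, Sox2, Tgfbr1 and Trim33. Of these, Bmpr1b, Eomes and Sox2 had passed the filter through the FLAG IP alone. Without the filter 8 of the 22 lost their call, among them Amh, Nog, Furin, Acvr1, Acvr1c, Eng and Smurf1. Compared with Smad4 on its first probe, the genes with the most similar profile over the 4 arrays were Rimkla, Cenpq and Eaf1, at a Euclidean distance of 0.02, 0.04 and 0.04 after each probe was centred on its own mean. Their changes were 0.89, 0.88 and 0.86. With 4 arrays and 18694 candidate probes such likeness is a description only.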

How the data were processed

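Per the file headers, the authors deposited an intensity for each spot of 1-colour arrays, extracted with Agilent Feature Extraction (version 9.5 in the submitters' processing notes), as a background-subtracted processed signal. The log2 values in the authors' deposited table equal log2 of that signal less a constant per array, within 0.01 for 99.6% of probes, and their median ran from 6.15 to 6.25. All 4 arrays were on 1 slide. Outlier spots (62 to 90 per array) were left out, 0 spots were saturated, spots of a probe were averaged on the log2 scale, and the 75th percentile of each array (signals of 1474 and 1676 for Input, 1019 and 1267 for FLAG IP) was subtracted. Accessions without version were matched to RefSeq symbols of assembly GRCm38.p6. The arrays were designed on another build, so no coordinates are given.

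The filter kept probes that, in Input or in FLAG IP, were well above background on every array. They were tested with limma 3.58.1 in R 4.3.3 (lmFit, eBayes, no covariates, two-sided, Benjamini-Hochberg), with a median SE of 0.17. The fit was tested on simulated data with noise independent between arrays. This cannot show how often calls on the real arrays are false. The genes, lists and rules were chosen with earlier results of these data known. Named genes are all probes of the 10 genes, up to 3 called genes in each direction per role of the wider list, and the 3 nearest profiles; the values of some genes of the wider list are not reported here. Acvr2a, Tgfb2, Inha, Inhbb, Cfc1, Smad1, Smad5, Smad6, T, Gsc, Id3 and Junb were added after their values were seen. Alternatives changed the background correction, scaling, filter, probe summary, moderation, replicate block and arrays. A block for slide or scan was not run, since all arrays share them.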

Additional observations from a re-analysis of the deposited data

How the results depend on the processing

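With 2 arrays per group the number of arrays limits the precision. Over all probes, 4330 were called higher and 5579 lower, against 600 and 16716 under spike-in scaling, 2875 and 2702 with the replicate block, and 3608 lower without the filter on dim probes. Leaving out 1 array gave 1166 to 4873 higher and 641 to 5709 lower. Of the 10 probes, 2 were higher and 0 lower under normexp and under trended and robust moderation, 0 and 5 under spike-in scaling, and 0 lower without the filter and with the replicate block. Leaving out 1 array gave 0 to 3 higher and 0 to 1 lower. Of the probes of the wider list, 14 higher and 16 lower became 5 and 54 under spike-in scaling, 8 lower without the filter and 5 lower with the replicate block, and 8 to 16 higher and 0 to 17 lower with 1 array left out.

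The replicate numbers do not pair the samples by any label. The deviations of replicate 1 from the group mean correlated at −0.38 between Input and FLAG IP. A crossed pairing, added after the data were seen, called 5587 probes higher and 7944 lower, and 3 of the 10 probes higher and 1 lower, with Acvr2b at 0.72 and the second probe of Smad4 at 0.56 then called; crossing follows from the correlation seen, so these added calls are no separate evidence. With the numbered block the first probe of Smad4 kept its call (adjusted p = 0.046) and Lefty1 (−0.57) did not. Of the 22 genes of the wider list, 8 lost their call with the numbered block, among them Amh, Nog, Furin, Acvr1, Amhr2, Eng and Smurf1, with adjusted p from 0.062 to 0.15, and 14 kept it.

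Lefty1 was no longer called under normexp (−0.34) and, with its value of −0.57 unchanged, without the filter and under trended and robust moderation. With 1 array left out it ranged from −0.64 to −0.49, Lefty2 from −0.05 to −0.00, Tdgf1 from 0.15 to 0.29, Acvr1b from −0.80 to 0.038, Acvr2b from 0.48 to 0.95, Smad2 from 0.14 to 0.35, the Smad3 probes from −0.37 to −0.15 and from −0.26 to −0.09, and the Smad4 probes from 0.83 to 0.96 and from 0.33 to 0.79. The normexp setting added an offset of 50 to each signal, which weighs most on dim probes. Normexp turned Acvr1b (0.25), Lefty2 (0.21) and the second probe of Smad3 (0.10), all of them dim and none called. It brought Acvr2b past the threshold (0.69), as did trended and robust moderation (0.72). Quantile normalization turned Lefty2 (0.033). The mean of its probes called Smad4 (0.73). Spike-in scaling turned Smad4 (−0.11 and −0.45), Tdgf1 (−0.78), Smad2 (−0.76), Acvr2b (−0.29), Nog (−0.20), Skil (−0.047) and Smurf1 (−0.23) and called Acvr1b (−1.39), Lefty2 (−1.03) and Smad3 (−1.26 and −1.18) lower. The cause of these differences was not tested.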
